A study of Mus musculus and Rattus norvegicus with 24 samples.

Results

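Genes of membrane traffic were taken as every listed gene whose symbol begins with Rab, Vps, Snx or Sec followed by a digit. These were 107 of 9595 genes, with 37 Rab, 28 Vps, 20 Snx and 22 Sec symbols. They were read in 24 single cells, 8 in each of 3 groups. Adult cells were ventricular cardiomyocytes of wild-type adult rats. Transplanted cells were cardiomyocytes made from a mouse embryonic stem cell line with Isl1-Cre, Rosa-RFP and aMHC-GFP, placed in the heart of a newborn rat and left there for 30 days. Cultured cells came from that line as well and stayed in a dish for the same time. Both mouse groups carry the same reporters, in which Isl1-Cre is driven in cardiac progenitors and aMHC-GFP by a cardiomyocyte promoter. The labels do not say which cells were sorted and which picked by hand, nor from how many animals or cultures they came. Each group was therefore 1 sample, no difference between groups was tested, and adult cells differ from the others in species as well as in age and origin.

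Membrane traffic moves proteins and lipids between compartments in small vesicles. A protein bound for the surface enters the endoplasmic reticulum through the Sec61 channel and leaves it in vesicles coated by the COPII complex. Rab GTPases mark each compartment and recruit the motors and tethers that bring vesicles to it. From endosomes, retromer and sorting nexins return receptors, ESCRT complexes send them into inner vesicles for degradation, and the HOPS, CORVET and GARP tethers hold membranes together before fusion. In cardiomyocytes these routes serve the delivery and recycling of channels, transporters and adhesion proteins. Of the 107 genes, 3 are not trafficking proteins by their textbook role: Vps72, a subunit of a chromatin remodelling complex, and the lipid-binding Sec14l1 and Sec14l3.

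Depth differed between the groups. Total counts per cell were 108546 to 223744 in adult, 88796 to 344224 in transplanted and 16099 to 60789 in cultured cells. Counts of genes in single cells are given below without scaling to depth, so alone they do not compare levels between groups. Counts are reads, with no molecular identifiers named, so brackets, which hold exact 95% intervals, cover counting error only. Ratios given as at least set a group at 0 to 3 counts. They leave out the other group's counting error and are not 95% limits. Cardiomyocyte markers, all 17 of 17 listed, took 19.8 to 24.6% of counts per adult cell, 19.0 to 24.9% per transplanted cell and 0.00837 to 17.5% per cultured cell. Myl7 was at 0 in adult and transplanted cells, and Mybpc3 and Nkx2-5 were at 0 in cultured cells. In cultured cells F, G and H the markers took 0.779%, 0.0883% and 0.00837%, so that those cells were cardiomyocytes rests largely on the label. Their counts stay in the cultured levels below. For some genes, such as Vps4b, Rab13, Sec22b and Sec61g, they are all of the cultured counts. Listed markers of each of 4 other cell types took at most 0.177% of counts in any cell. Many such markers are not among the listed genes, so this share could miss other cell types. Listed were 6 of 11 fibroblast, 6 of 10 endothelial, 6 of 7 smooth muscle and pericyte, and 3 of 10 macrophage and leukocyte markers. Rn45s, the ribosomal RNA precursor, took a median of 1.23% of counts per adult, 1.20% per transplanted and 7.02% per cultured cell. Count-weighted median exon length over all genes was 2063 bp in adult, 2063 bp in transplanted and 5796 bp in cultured cells. These values move with every contrast against cultured cells below, and their part in it was not tested.

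Fewer trafficking genes had counts in the adult and transplanted groups than in the cultured group. Counts were present for 35 of the 107 genes in adult, 38 in transplanted and 91 in cultured cells. Over all listed genes the shares with counts were 38.1%, 32.6% and 76.2%. Detection in cultured cells alone held for 51 of the 107, or 47.7%, against 43.4% of all listed genes. There were 19 genes with counts in all 3 groups, among them Rab1a, Rab11a, Sec61b, Sec61g, Vps28, Vps29 and Vps35. Rab7, Sec13 and Snx13 had counts in adult and transplanted cells and none in cultured cells. Sec11a, Snx15 and Vps4a had counts in adult cells alone, and Rab10, Rab30, Rab5c, Snx10 and Vps33b in transplanted cells alone. The 5 genes Rab11fip3, Rab20, Snx17, Snx19 and Vps52 had no count in any cell.

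The same contrast was seen cell by cell at equal depth. With each cell thinned in expectation to 16099 counts, the depth of the shallowest cell, a median of 3.21 trafficking genes was expected per adult cell (0.670 to 8.67). The median was 3.72 per transplanted cell (2.23 to 11.2) and 22.1 per cultured cell (8.73 to 38.7). As deposited, without thinning, the medians were 6, 5 and 22.5 genes. Cultured cells D and H, with the fewest, lay within the transplanted range, and every other cultured cell lay above all adult and transplanted cells. All genes were also more numerous in cultured cells at that depth, with medians of 687 per adult, 606 per transplanted and 1460 per cultured cell. As a share of genes detected at that depth, trafficking genes made up 0.133 to 0.844% in adult cells, 0.449 to 1.07% in transplanted cells and 1.17 to 1.59% in cultured cells. For this share the cultured cells did not overlap the other groups.

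**Figure D1:**
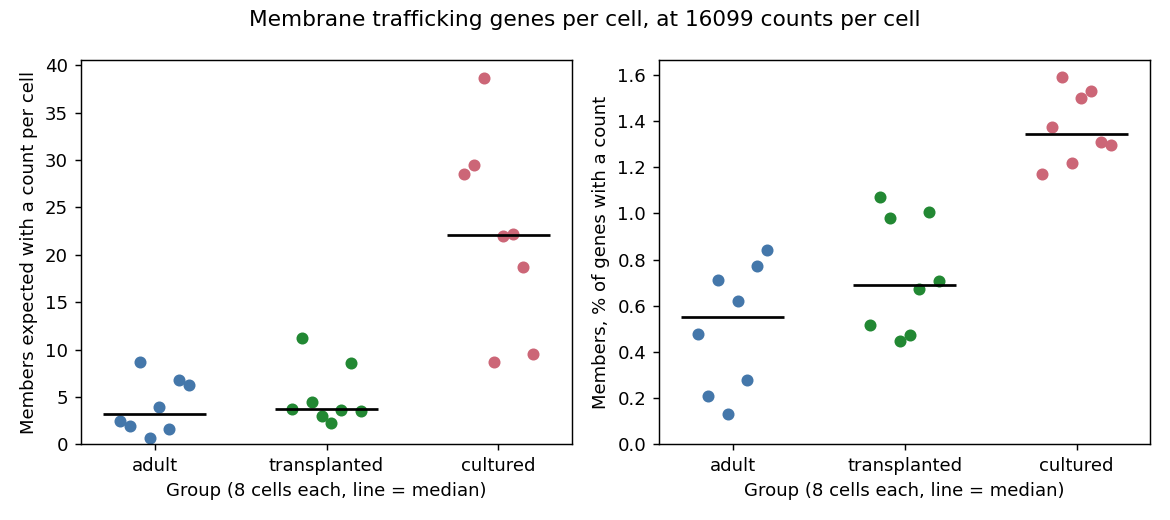
Trafficking genes expected with a count in each cell thinned to 16099 counts (left), and their percentage of all genes expected with a count (right), for adult, transplanted and cultured cells; each point is 1 cell and the line is the median of 8. The medians on the left are 3.21, 3.72 and 22.1, and on the right the cultured cells, at 1.17% and above, lie above all others.

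Together the 107 genes took 0.292% of counts in adult cells (0.283 to 0.302%), 0.257% in transplanted cells (0.248 to 0.266%) and 1.06% in cultured cells (1.01 to 1.10%). Per cell the share was 0.00651 to 0.575% in adult, 0.0480 to 0.552% in transplanted and 0.710 to 1.67% in cultured cells, so cultured cells again lay apart. What each group's share was made of differed too. The 5 most counted genes held 53.8% of trafficking counts in adult, 55.9% in transplanted and 20.4% in cultured cells. Among genes with at least 10 counts in a group, those with at least 90% of the counts in 1 cell were 21 of 26 (80.8%) in adult cells, 25 of 30 (83.3%) in transplanted cells and 20 of 58 (34.5%) in cultured cells. The same shares over all listed genes were 51.1%, 56.1% and 38.4%. Counts in at least 3 cells of a group were found for 4 trafficking genes in adult, 3 in transplanted and 28 in cultured cells, or 3.74%, 2.80% and 26.2% of them, beside 10.5%, 8.10% and 17.5% of all listed genes. Sec61g in 7 transplanted cells, and Rab11b and Sec61a1 in 6 cultured cells each, were the genes with counts in at least 6 cells of a group. Over all listed genes, 3.32% in adult, 2.88% in transplanted and 1.33% in cultured cells had counts in at least 6. In cultured cells too, 63 of the 91 trafficking genes detected were found in 1 or 2 cells. A group level of most trafficking genes in adult and transplanted cells is therefore the level of 1 or 2 cells.

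**Figure D2:**
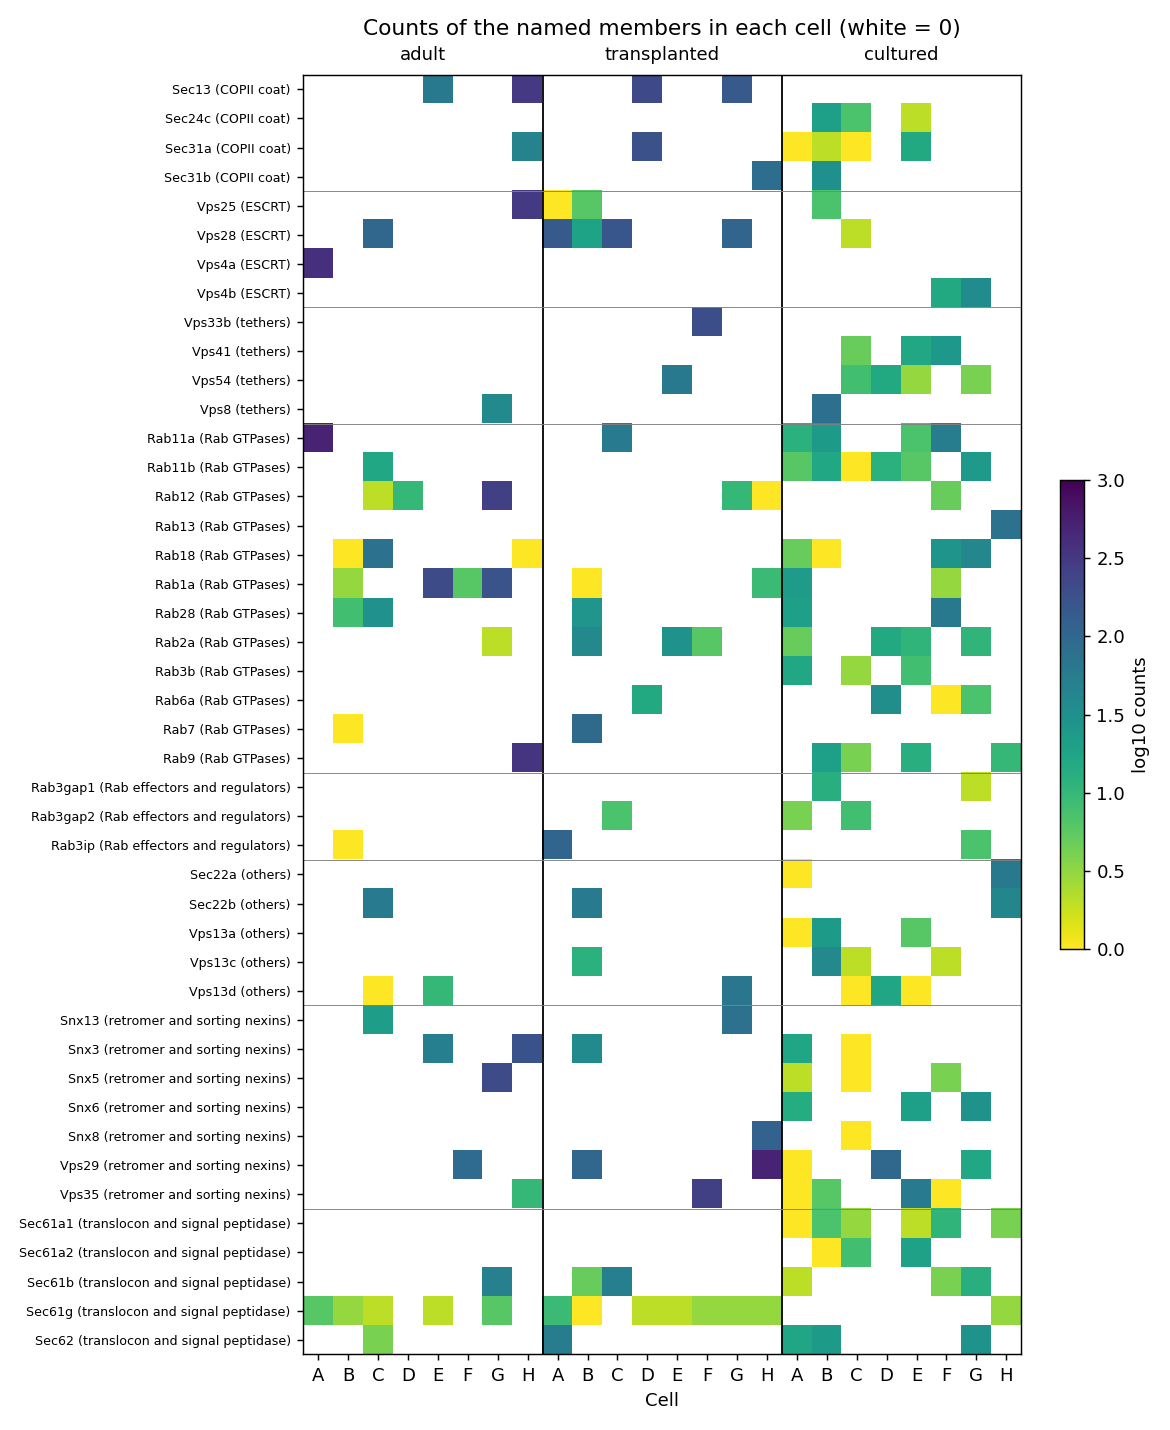
Counts of 44 named trafficking genes (rows, ordered by role) in each of 8 adult, 8 transplanted and 8 cultured cells (columns), on a log10 colour scale with white for 0. Adult and transplanted columns hold few, dark cells such as Rab11a in adult A (501 counts) and Vps29 in transplanted H (518 counts), while cultured columns hold more and paler ones. The colours are not scaled to depth, which was lower in cultured cells. Over all 107 genes, the median per gene and cell with counts was 71.4 CPM in adult, 153 CPM in transplanted and 252 CPM in cultured cells.

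The first comparison, transplanted over cultured, bears on 30 days in a heart in place of a dish. Of 71 trafficking genes with at least 10 counts over both groups, 56 (78.9%) were at least 2-fold lower in transplanted cells, where 63.9% of all genes tested were, and 10 (14.1%) were at least 2-fold higher, where 26.7% of all genes were. The median log2 ratio of log2(CPM + 1) was -6.00, beside -5.63 over all genes. With groups under 3 counts set to that floor, the medians were -4.78 and -4.50. A minimum of 10 counts is a higher level in the shallower cultured cells than in transplanted cells. With a minimum of 30 counts the median was -1.98, beside -1.10 over all genes, and 25 of 38 trafficking genes (65.8%) were at least 2-fold lower, beside 50.6% of all genes.

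Adult over cultured used the same cultured cells, so its values are not independent of the first. Here 54 of 68 trafficking genes (79.4%) were at least 2-fold lower in adult cells, beside 62.0% of all genes, and 10 (14.7%) were at least 2-fold higher, beside 28.6%. The median was -6.10 against -3.85 over all genes, or -4.90 against -4.04 at the floor. With a minimum of 30 counts it was -3.27, beside -1.02 over all genes, and 25 of 35 trafficking genes (71.4%) were lower, beside 50.2% of all genes. Adult over transplanted, which shares its cells with the other comparisons, was more even. Of 40 genes, 14 (35.0%) were at least 2-fold higher in adult cells, beside 44.0% of all genes, and 20 at least 2-fold lower, beside 34.6%. The median was -1.12, beside 0.37 over all genes, and ran from -3.35 without adult cell C to -0.13 without transplanted cell G.

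**Figure D3:**
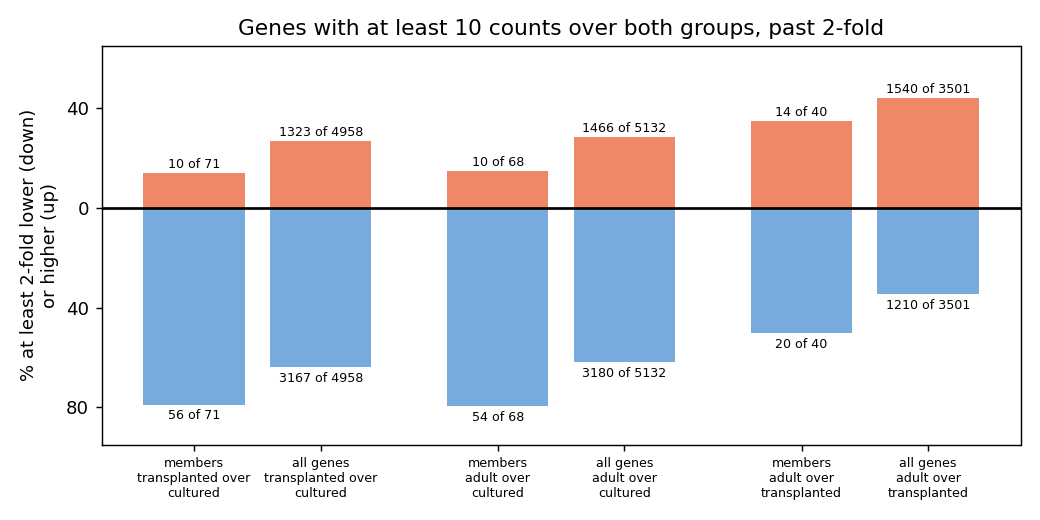
Percentage of genes at least 2-fold higher (up) or lower (down) in the first-named group, among genes with at least 10 counts over both groups, for trafficking genes and for all genes in each of 3 comparisons; the labels give the counts. Lower trafficking genes were 56 of 71, 54 of 68 and 20 of 40.

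Subunits of the Sec61 channel were detected in different groups. The channel is built from an alpha subunit, which forms the pore, with the small beta and gamma subunits beside it. Sec61a1 (alpha, chr6:88503579-88518905) was at 0 in every adult and transplanted cell, against 1, 7, 3, 0, 2, 11, 0 and 4 counts over the cultured cells, in the order A to H. It was at least 57.6-fold lower in adult than in cultured cells and at least 59.0-fold lower in transplanted than in cultured cells. Its paralog Sec61a2 (chr2:5870987-5895432) was likewise at 0 in adult and transplanted cells, against 1, 8 and 19 counts in cultured B, C and E, with the same bounds. Without cultured cell E these were 20.1-fold and 20.6-fold. Neither alpha subunit was thus detected in 16 adult and transplanted cells, where the floor is 2.36 and 2.30 CPM. The build named for the adult cells, which are rat, is a mouse genome. Its part in adult counts of 0 was not tested. Sec61g (gamma, chr11:16500530-16508484) was the reverse in breadth. It had 6, 3, 2, 0, 2, 0, 6 and 0 counts in adult cells A to H, 9, 1, 0, 2, 2, 3, 3 and 3 in transplanted cells, and 3 in cultured cell H alone. With counts in 13 of 24 cells, it was the most widely detected trafficking gene. The cultured level rests on that 1 cell. Levels did not differ beyond counting error: 14.9 CPM in adult, 17.7 CPM in transplanted and 14.6 CPM in cultured cells. The ratios were 1.03 for adult over cultured (0.30 to 5.42), 1.21 for transplanted over cultured (0.37 to 6.31), and 1.18-fold lower in adult than in transplanted cells (0.62 to 2.29). Such a level is under 1 count at the depth of the shallowest cultured cell, so the numbers of cells cannot be compared between groups.

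**Figure D4:**
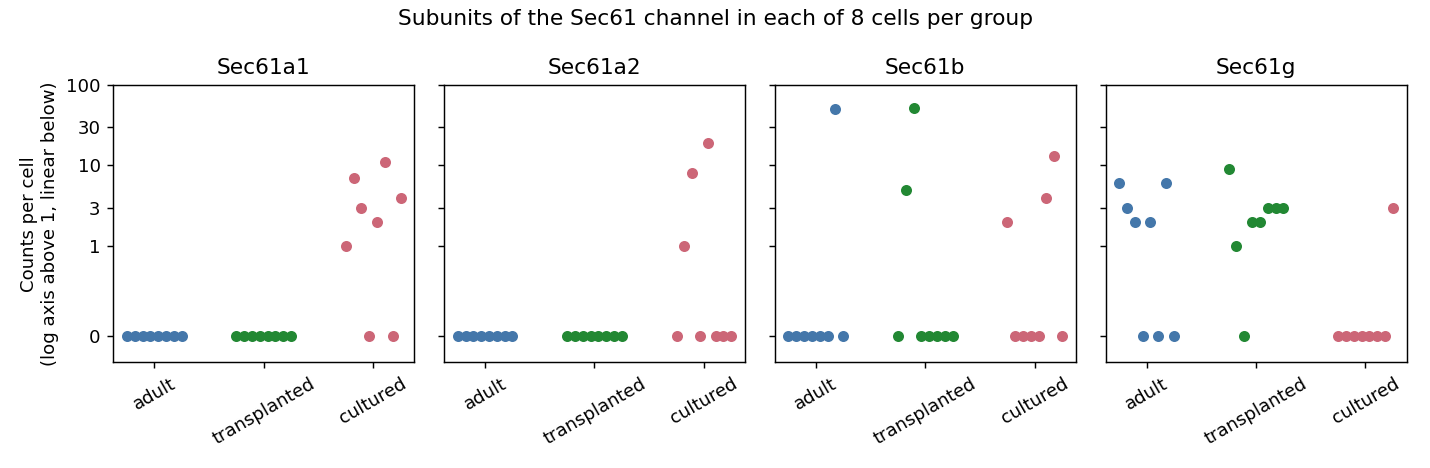
Counts of 4 Sec61 subunit genes in each cell of the adult, transplanted and cultured groups, on an axis that is logarithmic above 1 count and linear below; each point is 1 cell. Sec61a1 and Sec61a2 stay at 0 in all adult and transplanted cells, and Sec61g has counts in 5 adult, 7 transplanted and 1 cultured cell.

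Sec61b (beta, chr4:47474658-47483242) was concentrated in single cells of each group. It had 50 counts in adult cell G, 5 and 51 in transplanted cells B and C, and 2, 4 and 13 in cultured cells A, F and G. Adult cells were 2.34-fold lower than cultured cells (1.30 to 4.05), but 1.20-fold higher without cultured cell G and at least 33.8-fold lower without adult cell G. Transplanted cells were 2.14-fold lower than cultured cells (1.20 to 3.66), but 1.31-fold higher without cultured cell G and 22.4-fold lower without transplanted cell C. The level in adult cells was 1.09-fold below that in transplanted cells (0.733 to 1.63), at least 15.8-fold below it without adult G and 9.55-fold above it without transplanted C. Sec62, which helps post-translational entry, had 4 counts in adult cell C, 55 in transplanted cell A, and 17, 23 and 29 in cultured cells A, B and G. It was 106-fold lower in adult than in cultured cells (39.7 to 401) and 7.93-fold lower in transplanted than in cultured cells (5.48 to 11.5). Without adult C the first became at least 126-fold, and without transplanted A the second at least 130-fold. Without cultured G they were 69.3-fold and 5.16-fold. The alpha gene Sec61a1 overlaps exons of an antisense gene and Sec61a2 those of Nudt5, and the strand setting is not given, so reads of those partners cannot be told apart. The 250 bases before the starts of the small subunits' genes are shown because they are the only Sec61 genes with counts in all 3 groups (RefSeq, GRCm38.p6, 5′ to 3′ on the gene's strand). Sec61b lies at chr4:47474411-47474660 on the plus strand and Sec61g at chr11:16508485-16508734 on the minus strand, and capitals mark CCAAT or its reverse complement ATTGG.
Sec61b: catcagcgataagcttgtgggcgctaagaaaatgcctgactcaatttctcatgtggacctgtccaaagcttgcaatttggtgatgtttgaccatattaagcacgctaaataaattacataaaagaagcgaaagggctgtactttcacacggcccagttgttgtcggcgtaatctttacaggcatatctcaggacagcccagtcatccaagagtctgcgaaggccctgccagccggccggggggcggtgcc
Sec61g: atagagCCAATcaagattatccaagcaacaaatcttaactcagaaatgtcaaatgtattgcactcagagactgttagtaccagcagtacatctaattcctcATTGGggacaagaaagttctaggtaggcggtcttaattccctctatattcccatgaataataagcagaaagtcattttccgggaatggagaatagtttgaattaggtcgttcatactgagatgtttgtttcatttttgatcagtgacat
The Sec61g stretch holds 1 copy of each, and the Sec61b stretch holds neither.

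COPII coat genes, which build the vesicles leaving the endoplasmic reticulum, took 0.0333% of counts in adult cells (0.0302 to 0.0367%), 0.0484% in transplanted cells (0.0447 to 0.0523%) and 0.0980% in cultured cells (0.0849 to 0.112%). The class was 2.94-fold lower in adult than in cultured cells (2.47 to 3.48), 17.0-fold lower without adult H and 2.17-fold lower without cultured B. It was 2.03-fold lower in transplanted than in cultured cells (1.72 to 2.38), 4.82-fold lower without transplanted D and 1.49-fold lower without cultured B. Adult cells were 1.45-fold below transplanted cells (1.28 to 1.64), 8.40-fold below them without adult H and 1.64-fold above them without transplanted D. Counts were found for 2 of 11 genes in adult, 4 in transplanted and 10 in cultured cells. Sec13, of the outer coat and also a nuclear pore subunit, went against the class. Of the class counts, Sec13 made up 378 of 424 in adult and 366 of 630 in transplanted cells. It had 61 and 317 counts in adult cells E and H, 219 and 147 in transplanted cells D and G, and none in cultured cells. It was at least 20.4-fold higher in adult than in cultured cells and at least 19.3-fold higher in transplanted than in cultured cells. Those bounds were 3.95 without adult H and, for transplanted cells, 8.81 without D and 12.5 without G. Its coat partner Sec31a had 46 counts in adult H, 178 in transplanted D, and 1, 2, 1 and 15 in cultured A, B, C and E. Sec31a did not differ beyond counting error between transplanted and cultured cells (1.48-fold higher, 0.922 to 2.52). That ratio became at least 35.2-fold lower without transplanted D and 6.49-fold higher without cultured E. In adult cells Sec31a was 2.55-fold lower than in cultured cells (1.41 to 4.43), but 1.72-fold higher without cultured E. Adult H and transplanted D held both Sec13 and Sec31a. Sec31a was 3.78-fold lower in adult than in transplanted cells (2.72 to 5.34), which is a comparison of 1 cell with 1 cell. It was at least 48.3-fold lower without adult H and at least 13.8-fold higher without transplanted D. The cargo adaptor Sec24c had 20, 7 and 2 counts in cultured B, C and E and none in the other groups. It was at least 59.6-fold lower in adult than in cultured cells and at least 61.1-fold lower in transplanted than in cultured cells, or 26.2-fold and 26.9-fold without cultured B. Sec31b, the paralog of Sec31a, had 83 counts in transplanted H and 31 in cultured B. Its group levels were 63.7 CPM in transplanted and 150 CPM in cultured cells.

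Rab GTPases were the largest class, with 32 genes. They took 0.131% of counts in adult cells (0.125 to 0.138%), 0.0319% in transplanted cells (0.0289 to 0.0351%) and 0.356% in cultured cells (0.331 to 0.383%). The share in adult cells was 4.12-fold that in transplanted cells (3.69 to 4.59), 7.78-fold without transplanted B and 3.10-fold without transplanted H. The class share was 11.2-fold lower in transplanted than in cultured cells (9.89 to 12.6), 21.1-fold lower without transplanted B and 8.42-fold lower without transplanted H. Of the 32 genes, 11 had counts in adult, 11 in transplanted and 27 in cultured cells.

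**Figure D5:**
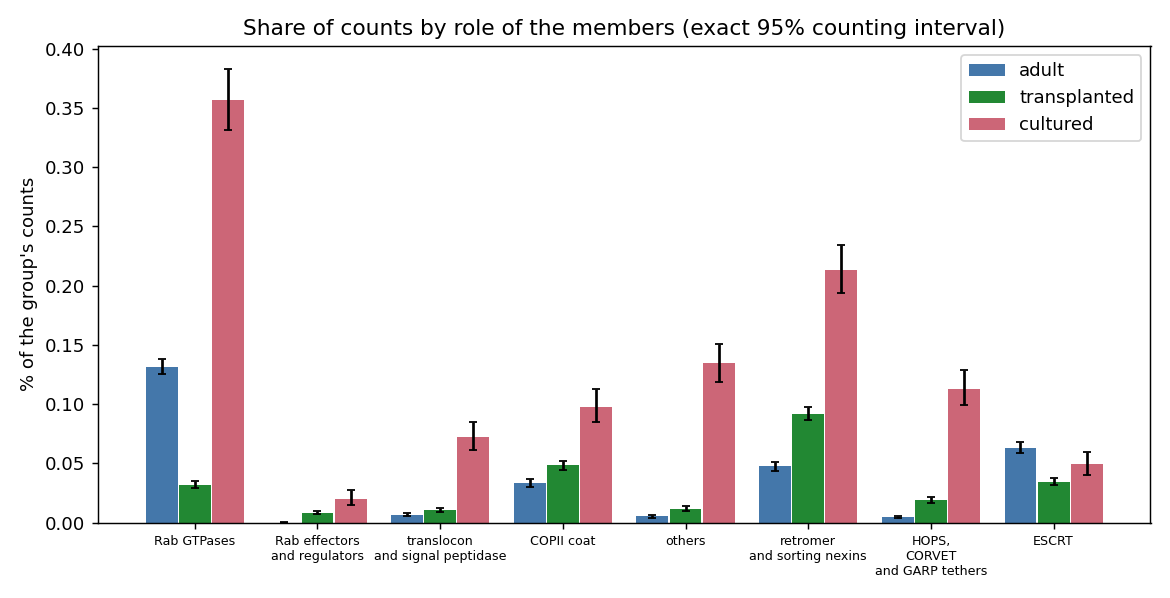
Percentage of each group's counts taken by 8 role classes of trafficking genes in adult, transplanted and cultured cells; whiskers are exact 95% counting intervals over the sum of 8 cells. Rab GTPases took 0.131%, 0.0319% and 0.356%, and ESCRT genes, at 0.0632%, 0.0347% and 0.0495%, were the class in which adult cells stood above cultured cells, though not without adult A.

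Rabs of the early secretory route parted in direction. Rab1a, which acts between the endoplasmic reticulum and the Golgi, had 3, 208, 6 and 171 counts in adult cells B, E, F and G, 1 and 9 in transplanted cells B and H, and 22 and 3 in cultured cells A and F. Adult cells were 39.8-fold above transplanted cells (21.4 to 83.6), 20.7-fold without adult E, 25.7-fold without adult G and 293-fold without transplanted H. Adult cells were 2.52-fold above cultured cells (1.68 to 3.94), 1.31-fold without adult E, 1.63-fold without adult G and 19.0-fold without cultured A. Transplanted cells were 15.8-fold lower than cultured cells (7.33 to 36.9), 2.1-fold without cultured A and 116-fold without transplanted H. Rab1a was thus high in 2 of 8 adult cells, and no transplanted cell passed 9 counts. Rab2a, of the same route, had 2 counts in adult G, 39, 29 and 6 in transplanted B, E and F, and 5, 15, 11 and 11 in cultured A, D, E and G. It was 36.1-fold lower in adult than in transplanted cells (9.65 to 304), or 18.9-fold without transplanted B and at least 20.8-fold without adult G. It was 3.59-fold lower in transplanted than in cultured cells (2.4 to 5.31), or 6.86-fold without transplanted B. Rab6a, of the Golgi, had none in adult cells, 15 in transplanted D, and 33, 1 and 7 in cultured D, F and G. Rab6a was at least 84.3-fold lower in adult than in cultured cells, or 19.0-fold without cultured D. Rab18, of the endoplasmic reticulum and lipid droplets, had 1, 76 and 1 counts in adult B, C and H, none in transplanted cells, and 5, 1, 28 and 41 in cultured A, B, F and G. It was at least 158-fold lower in transplanted than in cultured cells, or 80.5-fold without cultured G. Adult cells were at least 26.6-fold above transplanted cells, a bound that rests on adult C, without which no ratio could be formed.

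Recycling and late endosomal Rabs were likewise uneven. Rab11a, of recycling endosomes, had 501 counts in adult A, 57 in transplanted C, and 12, 23, 7 and 53 in cultured A, B, E and F. Its level of 394 CPM in adult and 461 CPM in cultured cells did not differ beyond counting error (1.17-fold lower in adult, 0.929 to 1.46), yet the adult group was at least 161-fold lower without adult A and 1.76-fold higher without cultured F. Its paralog Rab11b had 16 counts in adult C, none in transplanted cells, and 6, 16, 1, 12, 6 and 24 in cultured A, B, C, D, E and G. Rab11b was at least 137-fold lower in transplanted than in cultured cells, a bound that no single cell moved by over 1.5 times, and 25.1-fold lower in adult than in cultured cells (14.3 to 46.4), or at least 118-fold without adult C. Rab11b was thus found in 6 of 8 cultured cells and Rab11a in 4, while each was found in 1 adult cell. Rab12, of recycling to lysosomal routes, had 2, 10 and 271 counts in adult C, D and G, 10 and 1 in transplanted G and H, and 5 in cultured F. Adult cells were 9.18-fold above cultured cells (3.89 to 28.5), 2.22-fold below them without adult G, and at least 13.9-fold above them without cultured F. They were 26.4-fold above transplanted cells (14.5 to 53.4), but 1.29-fold without adult G and 268-fold without transplanted G. Rab9, of transport from late endosomes to the Golgi, had 340 counts in adult H, none in transplanted cells, and 20, 4, 13 and 10 in cultured B, C, E and H. Rab9 was at least 99.0-fold lower in transplanted than in cultured cells. Rab7, which marks late endosomes and lysosomes, had 1 count in adult B, 93 in transplanted B and none in cultured cells. Rab3b, linked to regulated secretion, had 16, 3 and 8 counts in cultured A, C and E and none elsewhere. It was at least 55.5-fold lower in adult than in cultured cells and at least 56.9-fold lower in transplanted than in cultured cells, or 25-fold and 25.6-fold without cultured A. Rab28 had 8 and 30 counts in adult B and C, 27 in transplanted B, and 20 and 61 in cultured A and F. Rab13, of junctional transport, had 75 counts in cultured H and none elsewhere. In that cell, cardiomyocyte markers took 0.00837% of counts.

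Rab effectors and regulators were scarce. The class had 1 count in adult cells, 111 in transplanted and 42 in cultured cells. These were 7.86e-05%, 0.00852% and 0.0204% of counts. The class was 2.39-fold lower in transplanted than in cultured cells (1.63 to 3.44). It was 33.8-fold lower without transplanted A and 1.61-fold lower without cultured C. Of the transplanted counts, 104 were Rab3ip, an exchange factor for Rab8, in cell A, beside 1 in adult B and 7 in cultured G. Rab3gap1 had 13 and 2 counts in cultured B and G and none elsewhere. Its partner Rab3gap2, with which it forms a regulator of Rab3 and Rab18, had 7 in transplanted C and 4 and 8 in cultured A and C.

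Retromer and sorting nexins took 0.0476% of counts in adult cells (0.0439 to 0.0515%), 0.0920% in transplanted cells (0.0868 to 0.0973%) and 0.213% in cultured cells (0.194 to 0.234%). The class was 2.32-fold lower in transplanted than in cultured cells (2.08 to 2.59), 3.62-fold lower without transplanted H and 1.92-fold lower without cultured E. Adult cells were 1.93-fold below transplanted cells (1.75 to 2.13), and 1.24-fold below them without transplanted H. The retromer core was led by single cells. Vps29, a core subunit, had 89 counts in adult F, 102 and 518 in transplanted B and H, and 1, 96 and 16 in cultured A, D and G. It did not differ beyond counting error between transplanted and cultured cells (1.15-fold lower, 0.934 to 1.41), but was 5.15-fold lower without transplanted H and 4.99-fold higher without cultured D. Its core partner Vps35 had 10 counts in adult H, 268 in transplanted F, and 1, 6, 57 and 1 in cultured A, B, E and F. No transplanted cell held counts of both, and cultured A held 1 of each. Snx3, a retromer adaptor, had 51 and 177 counts in adult E and H, 37 in transplanted B, and 17 and 1 in cultured A and C. Adult cells were 6.31-fold above transplanted cells (4.45 to 9.20), 1.69-fold without adult H and at least 70.4-fold without transplanted B. Snx6 and Snx5, which form related dimers of the retromer route, parted. Snx6 had 14, 20 and 29 counts in cultured A, E and G and none elsewhere. Snx6 was at least 130-fold lower in adult than in cultured cells and at least 133-fold lower in transplanted than in cultured cells, or 78.5-fold and 80.5-fold without cultured G. Snx5 had 209 counts in adult G, none in transplanted cells, and 2, 1 and 4 in cultured A, C and F. Snx8 had 115 counts in transplanted H and 1 in cultured C, and Snx13 had 21 in adult C and 75 in transplanted G.

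ESCRT genes were the class closest in level between groups, at 0.0632% of counts in adult cells (0.0589 to 0.0678%), 0.0347% in transplanted cells (0.0316 to 0.0380%) and 0.0495% in cultured cells (0.0403 to 0.0601%). Adult cells were 1.28-fold above cultured cells (1.04 to 1.59), but 1.26-fold below them without adult A. Of the only 3 trafficking genes with counts in at least 3 transplanted cells, Vps28 of ESCRT-I (chr15:76622087-76626086) had the highest ratio to cultured cells. It had 101 counts in adult C, 143, 18, 159 and 106 in transplanted A, B, C and G, and 2 in cultured C. Transplanted cells were 33.7-fold above cultured cells (9.27 to 279), and at least 20.7-fold without cultured C. Adult cells were 4.12-fold below transplanted cells (3.31 to 5.17), and at least 123-fold below them without adult C. Vps28 was thus found in 4 of 8 transplanted cells, against 1 cell of each other group. Its exons overlap those of Tonsl on the same strand, so reads from the shared stretch cannot be told apart. Vps25, of ESCRT-II, had 311 counts in adult H, 1 and 6 in transplanted A and B, and 7 in cultured B. Exons of Vps25 likewise overlap those of Ramp2 on the same strand. The ATPases that take ESCRT apart were found in different groups. Vps4a had 392 counts in adult A and none elsewhere, and Vps4b had 15 and 36 in cultured F and G and none elsewhere. In cultured F and G, cardiomyocyte markers took 0.779% and 0.0883% of counts.

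Tethers of the HOPS, CORVET and GARP complexes took 0.00472% of counts in adult cells (0.00360 to 0.00607%), 0.0192% in transplanted cells (0.0169 to 0.0217%) and 0.113% in cultured cells (0.0990 to 0.128%). Vps41, of HOPS, had 5, 16 and 25 counts in cultured C, E and F and none elsewhere. Vps41 was at least 94.6-fold lower in adult than in cultured cells and at least 96.9-fold lower in transplanted than in cultured cells, or 47.4-fold and 48.6-fold without cultured F. Vps54, of GARP, had none in adult cells, 61 in transplanted E, and 8, 15, 3 and 4 in cultured C, D, E and G. Vps54 was at least 61.7-fold lower in adult than in cultured cells, or 35.7-fold without cultured D. Vps8, of CORVET, had 38 counts in adult G, none in transplanted cells and 80 in cultured B. Vps33b, which serves related endosomal tethering, had 189 counts in transplanted F and none elsewhere. The class was 23.9-fold lower in adult than in cultured cells (18.0 to 32.4), or 16.3-fold lower without cultured B. It was 5.89-fold lower in transplanted than in cultured cells (4.91 to 7.07). The latter became 21.3-fold without transplanted F and 4.01-fold without cultured B.

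The remaining genes held the Vps13 lipid-transfer proteins, which work where membranes of separate organelles meet, and the Sec22 proteins. Vps13a had 1, 23 and 6 counts in cultured A, B and E and none elsewhere. It was at least 61.7-fold lower in adult than in cultured cells and at least 63.2-fold lower in transplanted than in cultured cells, or 20.4-fold and 20.9-fold without cultured B. Vps13c had none in adult cells, 12 in transplanted B, and 39, 2 and 2 in cultured B, C and F. It was at least 88.4-fold lower in adult than in cultured cells, or 11.7-fold without cultured B. Vps13d had 1 and 10 counts in adult C and E, 67 in transplanted G, and 1, 17 and 1 in cultured C, D and E. Its group levels were 8.65 CPM in adult, 51.4 CPM in transplanted and 92.2 CPM in cultured cells. The SNARE Sec22b had 57 counts in adult C, 59 in transplanted B and 42 in cultured H, so each group's level was that of 1 cell. Those levels were 44.8 CPM in adult, 45.3 CPM in transplanted and 204 CPM in cultured cells. Sec22a, its relative, had 1 and 61 counts in cultured A and H and none elsewhere. In cultured H, cardiomyocyte markers took 0.00837% of counts.

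Levels of different genes compare only per length of exon. In CPM per kilobase of exon, adult cells had Rab9 at 153, Vps25 at 149 and Rab11a at 132 as their highest. Transplanted cells had Vps28 at 142, Sec13 at 88.2 and Vps29 at 77.4. Cultured cells had Rab13 at 158, Rab11a at 154 and Rab9 at 130. Rab11a and Rab9 were thus among the 3 highest in adult and in cultured cells, but each of the adult levels is that of 1 cell. All adult counts of Rab9 and Vps25 were in cell H and those of Rab11a in cell A. All cultured counts of Rab13 were in cell H. The count-weighted median exon length of trafficking genes was 2992 bp in adult, 3513 bp in transplanted and 5203 bp in cultured cells. Exons of 44 of the 107 genes overlap another annotated gene, in 23 cases a protein-coding one.

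Other genes of these routes were read from lists of the same machinery. In transplanted over cultured cells, 9 of 10 clathrin and adaptor genes with at least 10 counts were at least 2-fold lower and none was higher, with a median log2 ratio of -5.83. For SNAREs and Sec1/Munc18 proteins, 10 of 19 were lower and 5 higher, and for translocon and signal peptidase genes without Sec symbols, 5 of 11 were lower and 4 higher, with medians of -1.38 and 0.37. All genes tested had a median of -5.63, with 63.9% lower and 26.7% higher. Lower and higher genes were 6 and 2 of 8 for COPI, 3 and 1 of 7 for Arf and Sar1 GTPases, 1 and 1 of 4 for the exocyst and 3 and 2 of 6 for TRAPP tethers. They were 4 and 1 of 5 for Rab chaperones and prenylation, 6 and 0 of 9 for ESCRT genes without Vps symbols, and 8 and 4 of 14 for COPII partners. In adult over cultured cells, 10 of 14 clathrin and adaptor genes were lower and 2 higher, and 9 of 19 SNARE genes were lower and 3 higher. Of 14 translocon and signal peptidase genes without Sec symbols, 9 were lower and 3 higher (1 with groups under 3 counts at the floor). Medians of these lists, in that order, were -5.83, -0.74 and -2.08. Over all genes the median was -3.85, with 62.0% lower and 28.6% higher. For the other lists, lower and higher genes were 4 and 0 of 6 for COPI, 5 and 2 of 8 for Arf and Sar1 and 2 and 0 of 3 for the exocyst. They were 4 and 2 of 7 for TRAPP and 4 and 2 of 6 for Rab chaperones. For ESCRT genes without Vps symbols they were 7 and 1 of 9, and for COPII partners 8 and 3 of 12. Of the most counted genes of these lists, a pair is described, chosen after their values were seen. Use1, a SNARE of Golgi to endoplasmic reticulum return, had 297, 149, 18, 255 and 6 counts in adult B, C, F, G and H, and 108, 143, 49, 218, 223, 93 and 871 in transplanted A, B, C, D, F, G and H. In cultured cells it had 2 counts, in H. Cltc, the clathrin heavy chain, had none in adult cells, 74 counts in transplanted B and 7, 73, 17, 112 and 7 in cultured A, B, C, D and F.

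Promoters of 87 of the 107 genes were searched on both strands, from 250 bases before to 50 after the start. The CLEAR core CACGTGAC, a motif of lysosomal genes, was held by 8 (9.20%), against 4.93% of all listed genes and 2.55% of all promoters. The 8 were Rab21, Rab3gap2, Sec23ip, Sec62, Vps16, Vps26a, Vps33a and Vps50. TGACGTGG, a motif of the unfolded protein response, was held by Sec23a and Sec24d, 2.30% of genes against 1.06% of listed genes. CCAAT was held by 34 (39.1%), against 43.0% of listed genes, and TATAAA by 6 (6.90%), against 9.01%. A match is a description of these letters and not of binding.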

How the data were processed

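Cells labelled as cardiomyocytes were taken one at a time, by a sorter or by hand under a microscope, and their RNA was copied, amplified by PCR, cut with Tn5 and sequenced, per the labels' protocols. The deposited values are whole-number counts of reads per gene and cell, with no molecular identifiers named. Per the submitters' processing notes, TopHat2 version 2.1.0, HTSeq and DESeq2 were used with the build mm10, a mouse genome, which is named for the rat cells as well. Not given in the sources used here are the annotation, the strand setting and how the 9595 genes were chosen.

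No animal or culture is named in the labels. Each group of 8 cells therefore counted as 1 sample, and no test, p-value or standard error was computed. The letters A to H only name cells. Between any 2 cells of a group, chi-square over its degrees of freedom was at least 13.6, so no 2 cells agreed within sampling noise. Counts were summed over the 8 cells of a group and divided by the group's total (CPM). Ratios carry exact conditional binomial intervals and shares exact Clopper-Pearson intervals, all at 95% and for counting error only, because PCR copies of a molecule are read more than once. A group at 0 was set to 3 counts over the group, a floor which gives a lower bound and was 2.36 CPM in adult, 2.30 CPM in transplanted and 14.6 CPM in cultured cells. With 3 counts or fewer in both groups, no ratio was formed. A gene counted as 2-fold higher or lower by log2(CPM + 1), with at least 10 counts over both groups. Depth was matched by the exact expectation of thinning each cell to the shallowest one. Scripts were tested on simulated data.

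The members, role classes and other lists were chosen with earlier results of these data known. Named were the 12 members with the highest CPM per group, and, per comparison, the 10 highest and 10 lowest ratios with counts in at least 3 cells of the higher group. Also named were the 3 most counted members of each role class and every member with counts in at least 6 cells of a group, 44 members in all. Exon lengths and positions came from GENCODE M21, where all 107 members matched. Promoters came from RefSeq for GRCm38.p6, where 87 members matched. Alternatives were TMM factors (edgeR 4.0.16), DESeq2 1.42.0 size factors, totals without Rn45s and Rpph1, equal cell weights, other minimums, folds and pseudocounts, and leaving out each cell.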

Additional observations from a re-analysis of the deposited data

Results flagged for a closer look

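Counts of the named genes with counts in at least 3 cells of a group were divided by each cell's total, because depth differs between cells. In 16 of 29 such checks, 1 of the 8 cells lay far from the others by Dixon's criterion, beside none of 9 checks of whole-cell measures. Chance flags about 1 in 20 such groups when values follow a normal distribution, which values with many zeros do not. In adult cells these were Rab12, at 1576 CPM in cell G, and Rab18, at 527 CPM in cell C. In transplanted cells they were Rab2a, at 314 CPM in cell B, and Sec61g, at 63.4 CPM in cell A. In cultured cells, Rab11a stood at 2869 CPM, Sec61a1 at 595 CPM and Snx5 at 216 CPM in cell F. Cultured cell E held Sec31a at 932 CPM, Sec61a2 at 1180.2 CPM and Vps35 at 3541 CPM. Cultured cell D held Rab6a at 1183 CPM, Vps13d at 609.6 CPM and Vps29 at 3443 CPM. Rab11b was at 1059 CPM and Sec61b at 574 CPM in cultured cell G, and Vps13c was at 642 CPM in cultured cell B. The cause was not tested.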

How the results depend on the processing

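No paired analysis was possible because the letters only name cells and no result comes from a test. The median log2 ratio of transplanted over cultured cells was -5.40 with TMM factors, -5.08 with equal weight for each cell, -5.02 and -1.98 with minimums of 5 and 30 counts, -3.77 with a pseudocount of 5 CPM and -4.78 at the floor, an alternative chosen after seeing the data. For adult over cultured cells it was -5.44 with TMM factors, -3.27 with a minimum of 30 counts, -4.00 with a pseudocount of 5 CPM and -4.90 at the floor, and for adult over transplanted cells -1.89 with a minimum of 5 counts. TMM factors moved the median of all genes by 0.87 to -4.76 for transplanted over cultured and by 0.88 to -2.97 for adult over cultured cells, and DESeq2 size factors moved these medians by 0.19 and 0.13. With a minimum of 30 counts, 25 genes were lower in transplanted and 25 in adult than in cultured cells. The share of counts in cultured cells was 1.17% without Rn45s and Rpph1. With equal cell weights the shares were 0.254% in adult, 0.290% in transplanted and 1.13% in cultured cells.

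Leaving out 1 cell at a time, the median ran from -6.21 to -4.40 for transplanted over cultured and from -3.35 to -0.13 for adult over transplanted cells. The share ran from 0.236 to 0.332% in adult, 0.232 to 0.294% in transplanted and 0.997 to 1.14% in the cultured group. Ratios of single named genes depended on single cells. Of 114 ratios of 44 genes, 109 moved by over 1.5 times without some cell. Among the ratios of at least 2-fold, 26, of 18 genes, changed sign. For transplanted over cultured cells the log2 ratios of these ran, for Rab12 from -3.79 to 3.24, Rab3ip from -5.13 to 6.34, Sec22b from -7.68 to 5.53, Sec31b from -7.24 to 6.02, Sec61b from -4.19 to 0.38, Snx3 from -6.46 to 2.21, Snx8 from -2.55 to 6.48 and Vps25 from -4.24 to 2.67. For adult over cultured cells they ran, for Rab12 from -1.08 to 7.80, Sec22b from -7.68 to 5.52, Sec31a from -6.54 to 0.75, Sec61b from -6.54 to 0.26, Snx3 from -0.85 to 4.82, Snx5 from -5.13 to 3.28, Vps25 from -5.13 to 7.94, Vps28 from -3.42 to 6.33 and Vps8 from -8.60 to 4.95. For adult over transplanted cells they ran, for Rab11a from -5.48 to 8.63, Rab3ip from -6.34 to 0.84, Rab7 from -6.18 to 0.84, Sec31a from -7.10 to 5.22, Sec62 from -5.43 to 2.05, Snx13 from -5.87 to 4.13, Vps13d from -4.80 to 3.27, Vps25 from -2.67 to 7.05 and Vps35 from -7.69 to 3.15. Some ratios under 2-fold, not in that number, changed sign as well. Among them, for transplanted over cultured cells, Vps29 ran from -2.35 to 2.31 and Vps35 from -8.30 to 2.26. For adult over cultured cells, Rab11a ran from -8.85 to 0.81. Under the other alternatives, 412 values of single genes kept within 1.5 times of the reported ratio and 158 moved further. Depth in cultured cells sets the limit, since a gene at 0 there may still reach 17.9 CPM, and each group is 1 sample.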
